A study of Rattus norvegicus with 8 samples.

Results

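The phase 2 and carbonyl detoxification enzymes on the array were taken as the protein-coding mRNA probes whose RefSeq transcript belongs to a rat gene of the glutathione S-transferase (GST), microsomal glutathione S-transferase (MGST), aldehyde dehydrogenase (ALDH), aldo-keto reductase (AKR), carbonyl reductase (CBR), UDP-glucuronosyltransferase (UGT) or sulfotransferase (SULT) families, together with Hsd11b1 and Ephx1. The rule used gene names and no measured value. It gave 86 genes, measured by 89 probes, of the 13882 named mRNA genes on the array. They were 21 GST, 2 MGST, 17 AKR, 3 CBR, 13 ALDH, 11 SULT and 17 UGT genes besides the other two.

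All samples were from male F344 rats at week 95 of a lung cancer model induced by NNK (4-(methylnitrosamino)-1-(3-pyridyl)-1-butanone), a nitrosamine of tobacco smoke. Normal lung tissue (3 arrays) and matched lung tumor tissue (3 arrays) both came from NNK-treated rats, so the normal lung had been exposed as well. The blood samples were clots from whole blood, 1 from the control group and 1 from the NNK treatment group. For the latter, the label fields for title, source and tissue gave blood, but its free-text field was worded like that of tumor 3. Total RNA was hybridised to a 1-color Agilent array of lncRNA and mRNA probes.

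NNK and many other foreign compounds are first oxidised or reduced and then coupled to a water-soluble group. The keto group of NNK is reduced to the alcohol NNAL by carbonyl reductases, among them 11β-hydroxysteroid dehydrogenase type 1 (Hsd11b1), Cbr1 and AKR1C enzymes, and NNAL is removed as a glucuronide made by UGT enzymes. GST and MGST enzymes couple electrophiles to glutathione, SULT enzymes transfer sulfate to phenols and steroids, ALDH enzymes oxidise aldehydes to acids, and microsomal epoxide hydrolase (Ephx1) opens epoxides. The liver carries the best known stock of many of them, and the lung has its own set in airway and alveolar cells.

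Promoters of members are shown first, most of them chosen for large differences in lung. The promoter windows came from RefSeq on the assembly GRCr8, ran from 250 bases before to 50 bases after the transcription start and were found for 73 of the 86 genes. Ugt2b15 (chr14:21122616-21122915, plus strand) and Ugt2b35 (chr14:21208191-21208490, plus strand), both of which fell in tumor, are printed whole because they hold the same unbroken run of 31 bases. The run begins 82 bases before the start in Ugt2b15 and 91 bases before it in Ugt2b35, and is in capitals.
Ugt2b15: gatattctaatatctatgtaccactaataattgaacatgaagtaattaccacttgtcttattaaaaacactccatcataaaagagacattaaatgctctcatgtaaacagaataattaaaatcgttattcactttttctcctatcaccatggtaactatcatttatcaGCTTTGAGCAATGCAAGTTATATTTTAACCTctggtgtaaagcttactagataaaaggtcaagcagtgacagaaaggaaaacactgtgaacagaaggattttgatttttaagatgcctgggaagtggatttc
Ugt2b35: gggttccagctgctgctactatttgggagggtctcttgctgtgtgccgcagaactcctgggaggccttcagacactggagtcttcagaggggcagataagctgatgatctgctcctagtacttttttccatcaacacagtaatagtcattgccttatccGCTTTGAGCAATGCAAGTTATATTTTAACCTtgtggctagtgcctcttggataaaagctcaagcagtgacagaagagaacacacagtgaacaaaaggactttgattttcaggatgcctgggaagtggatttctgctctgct
Aligned on that run, the windows matched at 51.5% of 291 bases. Of all 33469 promoter windows in the reference, 5 held the run, and these belonged to Ugt2b15, Ugt2b35, Ugt2b, Ugt2b37 and LOC134478834. Ugt2b and Ugt2b37 were each well above background on only 1 of the 3 normal lung arrays, and Ugt2b also on 1 tumor array. Ugt2b1, which fell as well, did not hold the run.

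The antioxidant response element is the sequence through which Nrf2 acts on GST and other detoxification genes, and its core TGACNNNGC was searched on both strands. It was present in 11 of the 73 member genes with a promoter window (15.1%) and in 12.1% of all promoter windows. The genes were Akr1c15, Aldh16a1, Aldh1a2, Aldh9a1, Ephx1, Gsta1, Gsta2, Gsta3, Gstm5, Gstm7 and Gstp1. Among genes with a window that passed the lung test given below, 1 of 4 higher in tumor (Gsta3) and 2 of 14 lower (Aldh1a2 and Gstm7) held it. The stretches around the match in 3 alpha-class GST genes are printed because 2 of these genes, Gsta2 and Gsta3, had a probe that read higher in tumor, and the match is in capitals. Gsta1 and the other Gsta3 probe read lower in tumor, and Gsta2 was not tested because its tumor spots were marked. Gsta5, which rose, is not among the genes listed with a match. The stretches are from Gsta1 (chr9:31216483-31216547, minus strand), Gsta3 (chr9:31154927-31155025, plus strand) and Gsta2 (chr8:88077043-88077101, minus strand, where the match is on the opposite strand of the gene).
Gsta1: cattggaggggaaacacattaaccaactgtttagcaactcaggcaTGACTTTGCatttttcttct
Gsta3: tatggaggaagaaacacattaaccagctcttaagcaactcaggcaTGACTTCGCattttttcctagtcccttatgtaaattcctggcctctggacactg
Gsta2: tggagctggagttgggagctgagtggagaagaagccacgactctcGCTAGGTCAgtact
The match began 17 bases before the start in Gsta3, and 30 and 36 bases after it in Gsta1 and Gsta2. Such a match is a description of the letters only.

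Values below are log2 normalized signals, that is log2 processed intensities after quantile normalization within the 6 lung arrays or within the 2 blood arrays. A lung value and a blood value are therefore not on 1 scale. Levels of different probes were not compared, except that signals within a marker list were summed, where the brightest probes weigh most. The number of arrays limits the precision. The study calls the tumors independent samples, each with a matched normal lung, without giving the animals. Standard errors and p-values therefore measure the spread between these arrays, which may not be a spread between animals. The normal lung arrays differed from each other by 0.457 to 0.783 times the mean square expected from the spread of repeated spots, and tumors 2 and 3 by 0.460 times, while tumor 1 differed from them by 2.85 and 3.18 times and normal lung from tumor by 8.31 to 12.7 times. Since arrays labelled as separate samples differed by less than the spot noise, they may be repeats of 1 sample, which was not tested. Such arrays were also counted once as an alternative, and calls lost that way are named beside the genes. Normal lung 1 to 3 and tumor 1 shared a scan, and tumors 2 and 3 shared another. A fit with scan as a block therefore sets tumor 1 alone against normal lung. Spots marked as outliers by the scanner software made up 4.92% to 8.62% of the spots above background on normal arrays and 15.9% to 25.3% on tumor arrays, and they were left out of the test. In bulk tissue, fewer cells of a type and less RNA per cell cannot be told apart.

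Of the 89 member probes, 71 were well above background on all 3 normal lung arrays and 66 on all 3 tumor arrays, while 12 were not so on any lung array. In all, 72 probes passed the filter on low values (signal marked well above background on 3 or more lung arrays) and 52 were tested. The other 20 had outlier marks on too many arrays, and for these the value with the marked spots kept is given. The 17 probes that did not pass were those of Akr1b7, Akr1c12l1, Akr1d1, Aldh1a3, Aldh1b1, Gstm3, Gstm6, Gstm6l, Gstt4, Sult1d1, Sult2a2, Sult2a6, Sult2b1, Ugt2a3, Ugt2b, Ugt2b37 and Ugt2b7.

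In lung tumor, 5 of the 52 tested probes were at least 2-fold higher with an adjusted p of at most 0.05 (limma, Benjamini-Hochberg over all probes tested), or 9.62%, beside 13.5% of all 12471 probes tested. Another 15 were lower, or 28.8%, beside 15.5% of all probes. The remaining 32 did not pass. The median log2 difference was -0.28 over the 52 probes and 0.07 over all probes tested. With the marked spots kept, 72 probes were tested, 9 were higher and 16 lower, beside 13.5% and 14.4% of all probes. The median was then -0.06, beside 0.06 over all probes. The probes that rose were those of Cbr3, Akr1b8 and 3 GST genes. Those that fell were 3 ALDH, 4 AKR, 3 SULT and 4 UGT enzymes and 1 GST. Tumor 1 alone, set against the normal arrays of its own scan, had the same direction in all 20 and at least a 2-fold difference in 18, the exceptions being Akr7a2 (log2 difference -0.60) and Ugt8 (-0.89). The fit that called these 20 probes already held tumor 1 and the same normal arrays, so this agreement is not separate support for the calls.

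**Figure D1:**
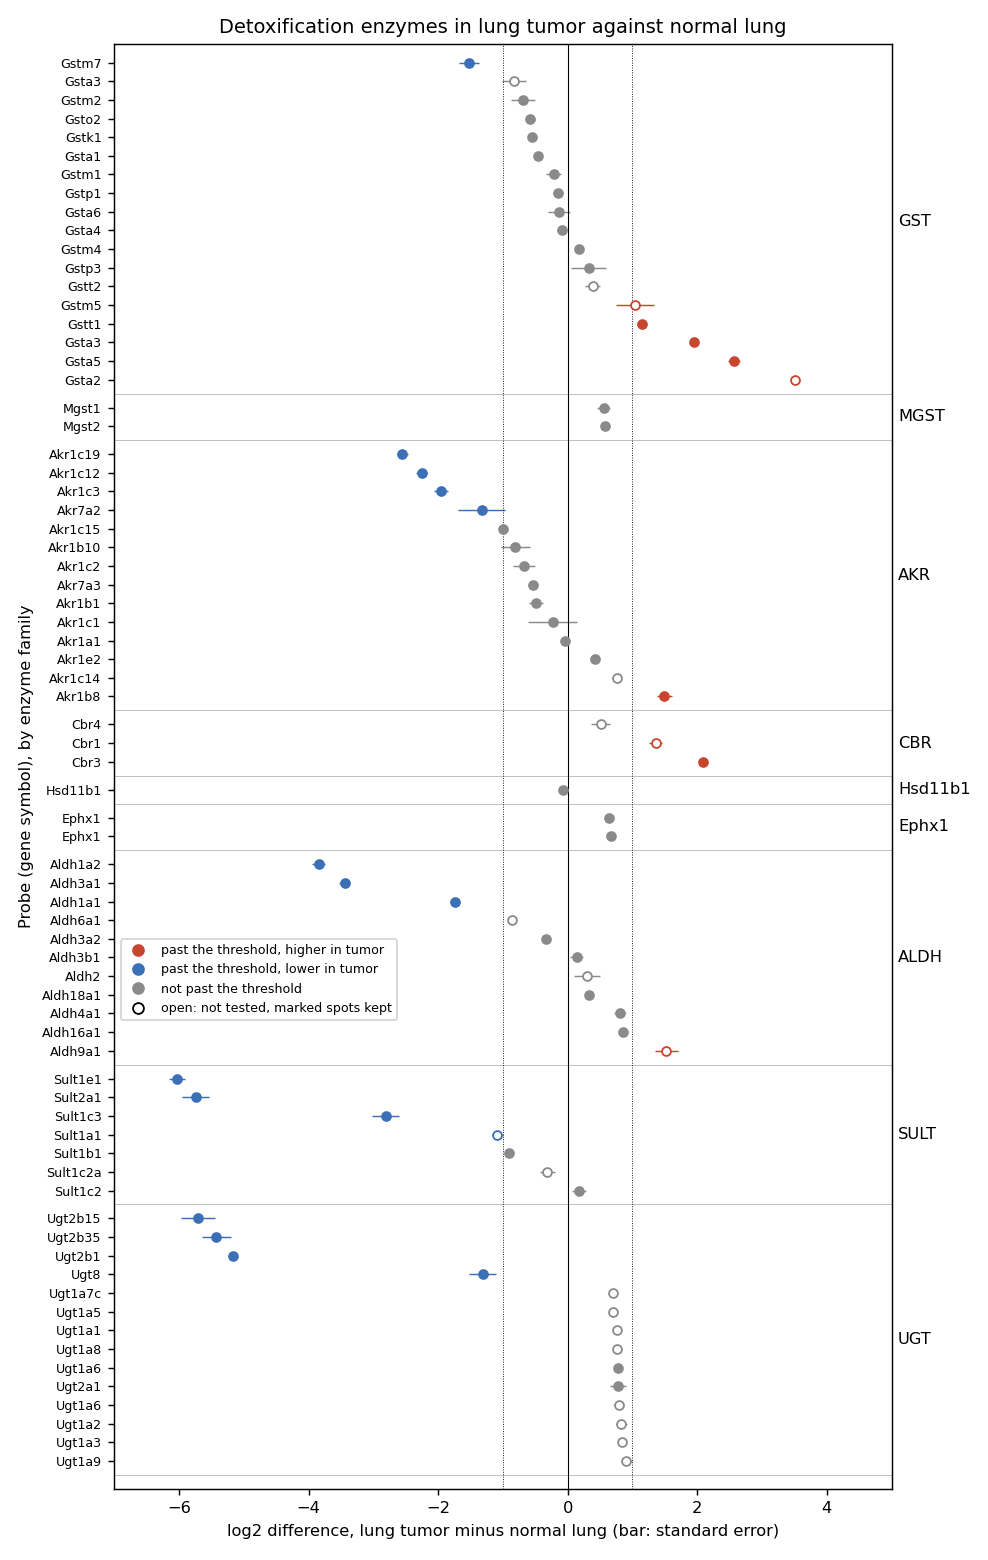
Log2 difference between lung tumor and normal lung (horizontal axis, bars are standard errors, 3 arrays a group) for the 72 member probes that passed the filter, 1 row a probe, grouped by family. Filled points were tested without marked spots and open points were computed with marked spots kept. Ugt2b1, Ugt2b15, Ugt2b35 and Sult1e1 were not well above background on any tumor array, so how far left their points lie is not a measured size, while the Ugt1a points lie between 0.70 and 0.90 and Cbr3 at 2.09.

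Of the 3 carbonyl reductases, 1 kept enough unmarked spots to be tested, and it rose. Cbr3, a cytosolic NADPH-dependent carbonyl reductase, read 12.99, 12.93 and 12.95 in normal lung and 15.09, 15.05 and 14.99 in tumor. The 3 tumor arrays lay close together and well above the normal arrays, and the log2 difference was 2.09 (SE 0.05, n = 3 and 3), a 4.25-fold rise (limma, adjusted p = 5.63e-06). Cbr1, its close relative and an NNK reductase, read 12.70, 12.85 and 12.57 in normal lung and 14.18, 14.02 and 13.99 in tumor. All 6 Cbr1 spots carried outlier marks, so it was not tested, and with these spots kept it was higher by 1.36 (SE 0.10, adjusted p = 0.000115) with no overlap between groups. Cbr4, a mitochondrial member, differed by 0.51 with marked spots kept and did not reach 2-fold.

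Hsd11b1, the microsomal enzyme that reduces NNK and also regenerates active glucocorticoid, read 16.89, 16.85 and 16.92 in normal lung and 16.84, 16.81 and 16.82 in tumor. The difference was -0.07 (SE 0.05, adjusted p = 0.283), and scaling by the 75th percentile in place of quantiles turned its sign, to 0.029. Akr1a1, the broad aldehyde reductase, likewise moved little, with a difference of -0.05 (SE 0.05, adjusted p = 0.468).

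Among the AKR genes, 1 of 13 tested was higher and 4 were lower (7.69% and 30.8%, beside 13.5% and 15.5% of all probes). Akr1b8, an aldose reductase-like enzyme, read 6.41, 6.45 and 6.30 in normal lung and 8.10, 7.80 and 7.74 in tumor. The groups did not overlap and the rise was 1.49 (SE 0.11, adjusted p = 0.000168), although the call was lost when near-identical arrays were counted once. Akr1b1, aldose reductase itself, was lower by 0.48 (SE 0.11, adjusted p = 0.0106), short of 2-fold.

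The AKR1C genes encode hydroxysteroid dehydrogenases that also reduce aldehydes and ketones. Akr1c19 read 11.37, 11.37 and 11.43 in normal lung and 8.99, 8.74 and 8.78 in tumor. That was a fall of 2.55 on the log2 scale (SE 0.08, adjusted p = 9.38e-06). Akr1c12 read 7.94, 7.93 and 8.04 in normal lung and 5.79, 5.57 and 5.80 in tumor, and differed by -2.25 (SE 0.09, adjusted p = 1.51e-05). Akr1c3 read 7.38, 7.55 and 7.65 in normal lung and 5.43, 5.72 and 5.56 in tumor, and differed by -1.96 (SE 0.11, adjusted p = 5.28e-05). In these 3 genes every tumor array was below every normal array with a gap wider than the spread within either group. Akr1c15 read 17.48, 17.48 and 17.45 in normal lung and 16.49, 16.46 and 16.47 in tumor, and its difference of -0.997 (SE 0.05, adjusted p = 3.01e-05) lay just short of the 2-fold threshold. It passed the threshold under 5 alternatives, among them normexp (-1.08), quantile normalization over all 8 arrays (-1.34) and the authors' normalized values (-1.32). Akr1c2 was at -0.67. Akr1c1 was at -0.23 (SE 0.38), with tumor 1 at 2.92 and the other tumors at 4.10 and 4.31, and it depended on tumor 1. With scan as a block, which sets tumor 1 alone against normal lung, the difference was -1.09. Without tumor 1 it was at 0.19. Neither tumor 1 nor normal lung 2 was well above background for Akr1c1. Akr1c14, the rat 3α-hydroxysteroid dehydrogenase, was at 0.75 with marked spots kept, so the AKR1C genes did not all go 1 way. Akr1c transcripts are alike in sequence and their probes may take up each other's RNA.

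Akr7a2, an aflatoxin aldehyde reductase, was the least firm fall. It read 6.97, 6.62 and 6.38 in normal lung and 6.06, 4.76 and 5.17 in tumor, and the difference was -1.33 (SE 0.36, adjusted p = 0.0229). Tumor 1 was close to the lowest normal array, and the call was lost, among other settings, under normexp background correction, with scan as a block and when near-identical arrays were counted once. Its relative Akr7a3 was lower by 0.54 (SE 0.08).

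**Figure D2:**
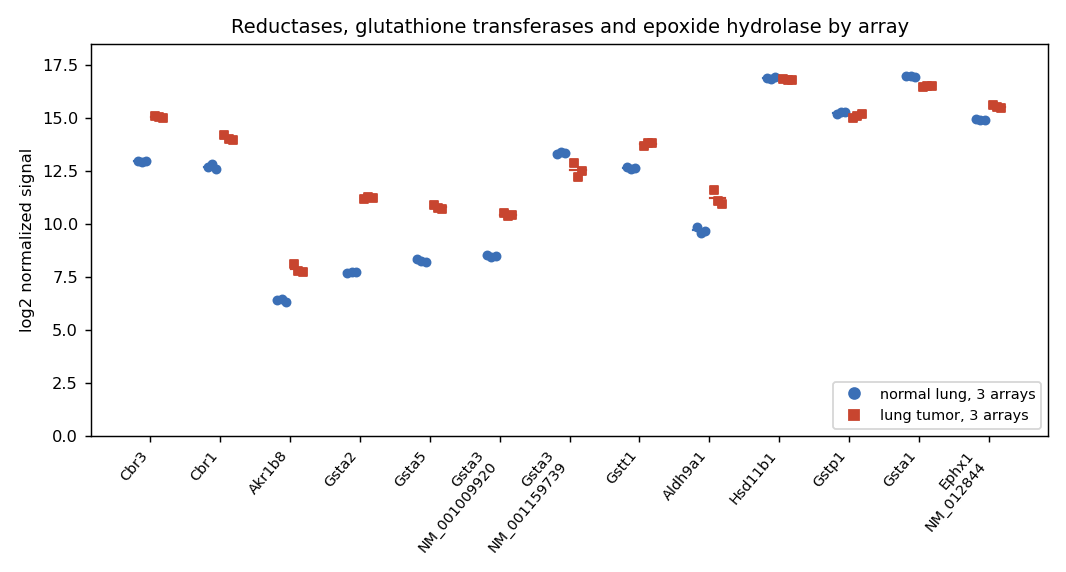
Log2 normalized signal on each of the 3 normal lung arrays (circles) and 3 lung tumor arrays (squares) for carbonyl reductases, glutathione transferases and Ephx1, with short lines at the group means. Cbr3, Akr1b8, Gsta2, Gsta5 and 1 Gsta3 probe stand higher in tumor, the other Gsta3 probe lower, and Hsd11b1 and Gstp1 lie at nearly the same height in both groups.

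Of the 14 GST probes tested, 3 rose (21.4%, beside 13.5% of all probes), 1 fell (7.14%, beside 15.5%) and 10 did not pass. Gsta5, an alpha-class transferase, read 8.36, 8.26 and 8.19 in normal lung and 10.92, 10.76 and 10.72 in tumor, where the spot of tumor 3 was marked. Without that spot the rise was 2.57 (SE 0.09, adjusted p = 4.38e-05), or 5.95-fold, and with it 2.53. The widest difference in the family was that of Gsta2, which read 7.68, 7.72 and 7.73 in normal lung and 11.18, 11.27 and 11.21 in tumor. All 3 tumor spots of Gsta2 were marked, so it was not tested, and with them kept it was higher by 3.51 (SE 0.05, adjusted p = 2.64e-06), or 11.4-fold.

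The 2 probes of Gsta3 disagreed. The probe for NM_001009920 read 8.55, 8.45 and 8.50 in normal lung and 10.52, 10.40 and 10.42 in tumor, a rise of 1.95 (SE 0.06, adjusted p = 9.05e-06). The probe for NM_001159739 read 13.31, 13.40 and 13.37 in normal lung and 12.89, 12.20 and 12.50 in tumor, lower by 0.83 with its 6 marked spots kept. Alpha-class genes are alike in sequence, and which transcripts each probe takes up was not tested. Gsta1 was lower by 0.46 (SE 0.05, adjusted p = 0.00081) and Gsta4, which acts on lipid aldehydes such as 4-hydroxynonenal, differed by -0.10 (SE 0.07, adjusted p = 0.281).

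Gstt1, the theta-class enzyme that acts on small halogenated compounds, read 12.68, 12.58 and 12.64 in normal lung and 13.68, 13.84 and 13.83 in tumor. The rise of 1.15 (SE 0.07, adjusted p = 6.52e-05) was just above 2-fold and was lost under the 75th percentile scaling and when near-identical arrays were counted once. Gstm7, a mu-class enzyme, read 6.31, 6.16 and 5.95 in normal lung and 4.88, 4.52 and 4.44 in tumor. It differed by -1.52 (SE 0.16, adjusted p = 0.000535), a call lost under normexp and when near-identical arrays were counted once. Gstm5, with marked spots kept, was higher by 1.03 (SE 0.30), and the call was lost under normexp (0.35), without tumor 1 (0.72) and, among other settings, when near-identical arrays were counted once (adjusted p = 0.201).

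Several enzymes often followed in lung moved little. Gstp1, the pi-class transferase of airway epithelium, read 15.18, 15.29 and 15.30 in normal lung and 15.02, 15.11 and 15.19 in tumor, with overlapping arrays and a difference of -0.15 (SE 0.07, adjusted p = 0.118). Gstm1 differed by -0.21 (SE 0.11, adjusted p = 0.169). The membrane-bound Mgst1 and Mgst2 differed by 0.56 and 0.57, and the 2 probes of Ephx1 by 0.63 and 0.66, all past the adjusted p (0.00467 for Mgst1, 0.000199 for Mgst2, 0.000941 and 0.00154 for Ephx1) and all under 2-fold.

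Of the 8 ALDH probes tested, 3 were lower (37.5%, beside 15.5% of all probes) and none was higher. Aldh1a2, which makes retinoic acid from retinal, read 13.78, 13.71 and 13.70 in normal lung and 10.01, 9.76 and 9.69 in tumor, the last of which was a marked spot. Without it the difference was -3.85 (SE 0.10, adjusted p = 1.98e-05), 14.4-fold. Aldh3a1, which oxidises aromatic and medium-chain aldehydes, read 11.28, 11.32 and 11.26 in normal lung and 8.01, 7.73 and 7.78 in tumor, a difference of -3.44 (SE 0.09, adjusted p = 5.70e-06). Aldh1a1, another retinal dehydrogenase, read 10.93, 10.96 and 11.02 in normal lung and 9.27, 9.31 and 9.11 in tumor, a difference of -1.74 (SE 0.07, adjusted p = 2.03e-05). In all 3 the gap between the groups was wider than the spread within either. The others went both ways. Aldh16a1 (0.85) and the proline catabolism enzyme Aldh4a1 (0.80) were higher and fatty aldehyde dehydrogenase Aldh3a2 (-0.33) was lower, each under 2-fold, and mitochondrial Aldh2 differed by 0.30 with its marked spots kept (adjusted p = 0.231). Aldh9a1, which oxidises aminoaldehydes, was higher by 1.52 (SE 0.18) with marked spots kept, a call lost when near-identical arrays were counted once (adjusted p = 0.0694).

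**Figure D3:**
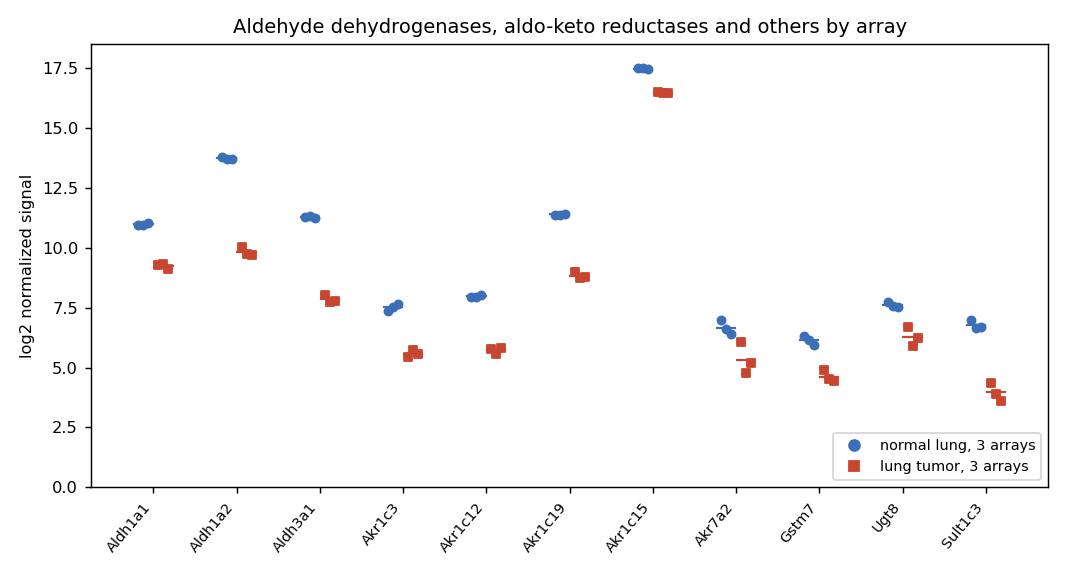
Log2 normalized signal on the 3 normal lung arrays (circles) and 3 lung tumor arrays (squares) for ALDH, AKR and other enzymes that were lower in tumor, with short lines at the group means. Aldh1a2 and Aldh3a1 show the widest gaps, and in Akr7a2 tumor 1 lies nearest to the normal arrays.

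UGT2B and SULT enzymes were among the probes that fell. Ugt2b1, Ugt2b15 and Ugt2b35, glucuronosyltransferases of steroids and foreign compounds, were each well above background on all 3 normal lung arrays and on no tumor array. Ugt2b1 read 6.44, 6.48 and 6.58 in normal lung and 1.33, 1.36 and 1.31 in tumor. It was at least 10.1-fold lower in tumor (limma, adjusted p = 1.70e-06), a bound set against the lowest signal well above background on each tumor array. Ugt2b15 read 7.77, 7.93 and 7.98 in normal lung and 1.71, 2.11 and 2.71 in tumor, at least 26.5-fold lower (adjusted p = 2.68e-05). Ugt2b35 read 7.77, 7.78 and 7.84 in normal lung and 2.55, 1.87 and 2.71 in tumor, at least 24.9-fold lower (adjusted p = 2.03e-05). The 3 other UGT2B probes, Ugt2b, Ugt2b7 and Ugt2b37, did not pass the filter.

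Estrogen sulfotransferase, Sult1e1, read 7.44, 7.63 and 7.74 in normal lung and 1.504, 1.776 and 1.462 in tumor, where no array was well above background, and was at least 21.7-fold lower (adjusted p = 4.18e-06). Sult2a1, which sulfates hydroxysteroids and bile acids, read 8.57, 8.61 and 8.71 in normal lung and 2.44, 3.24 and 2.99 in tumor. Only 1 tumor array was well above background for it, and the fitted difference was -5.74 (SE 0.21, adjusted p = 1.42e-05). Sult1c3 read 6.97, 6.66 and 6.69 in normal lung and 4.36, 3.92 and 3.61 in tumor, a difference of -2.81 (SE 0.21, adjusted p = 0.000157) that lost its call under normexp. Sult1a1, the main phenol sulfotransferase, read 15.45, 15.64 and 15.55 in normal lung and 14.36, 14.55 and 14.47 in tumor, lower by 1.08 with all 6 marked spots kept, a call lost when near-identical arrays were counted once (adjusted p = 0.0611). Sult1b1 (-0.90) and Sult1c2 (0.17) were under 2-fold. Ugt8, which builds the galactolipids of myelin, differed by -1.31 (SE 0.21, adjusted p = 0.0032), lost with scan as a block and when near-identical arrays were counted once.

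Genes known best from hepatocytes were lower on the same arrays. Of the 15 genes of a hepatocyte list that had a probe, 13 probes were tested, 11 were lower and none higher, with a median difference of -3.49. The summed normalized signal of the list was 126173 to 130283 in normal lung and 76198 to 82065 in tumor. Most of the tumor sum came from fibrinogen gamma (Fgg), which read 16.25, 16.12 and 16.16 there and was not among the genes that fell. Albumin (Alb) read 13.84, 13.84 and 13.89 in normal lung and 9.21, 10.96 and 11.16 in tumor, and transthyretin (Ttr) 11.56, 11.51 and 11.60 against 6.20, 5.64 and 5.66. The liver cytochrome P450 Cyp2c11 differed by -5.16. Fgg was higher by 0.75 and Cps1 differed by -0.19, while Tat, Hpd and Ambp did not pass the filter. The part of such transcripts in the falls of the UGT2B and SULT genes was not tested.

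Markers of lung cell types also moved with tissue. The summed signal of the type 1 alveolar list was 887720 to 905314 in normal lung and 294244 to 305129 in tumor (3 of 4 tested probes lower), that of the endothelial list 204782 to 213965 against 36803 to 37062 (2 of 2 lower), and that of the club cell list 299639 to 342233 against 311465 to 336032 (1 of 3 higher). Most of the club cell sum came from Scgb1a1, which differed by -0.07. Cyp2f4 was higher by 1.08 and Cldn10 differed by 0.06. With marked spots kept, Scgb3a1 was higher by 3.48 and Scgb3a2 differed by -0.30. The type 2 alveolar list summed to 1012955 to 1054086 in normal lung and 1188995 to 1213682 in tumor, and none of its 6 tested probes passed the threshold, although Sftpc did with marked spots kept (1.14). Of immune and blood cell lists, the macrophage sum was 129915 to 140059 in normal lung and 213048 to 239460 in tumor (1 of 3 higher), and the red blood cell sum 220010 to 228372 against 130881 to 139183 (4 of 5 lower). The T cell sum was 18667 to 19557 against 10085 to 11539 (1 of 6 lower). The neutrophil sum was 12783 to 13624 against 2695 to 3326. Of its probes 1 was tested and not called, while S100a8 (-2.12) and Csf3r (-2.40) passed the threshold with marked spots kept. The platelet sum was 4999 to 5318 against 7862 to 9142 although 3 of 4 tested probes were lower. Most of it came from Pf4, which was higher by 0.98 with marked spots kept. The part of these cell types in the differences of the detoxification enzymes was not tested.

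**Figure D4:**
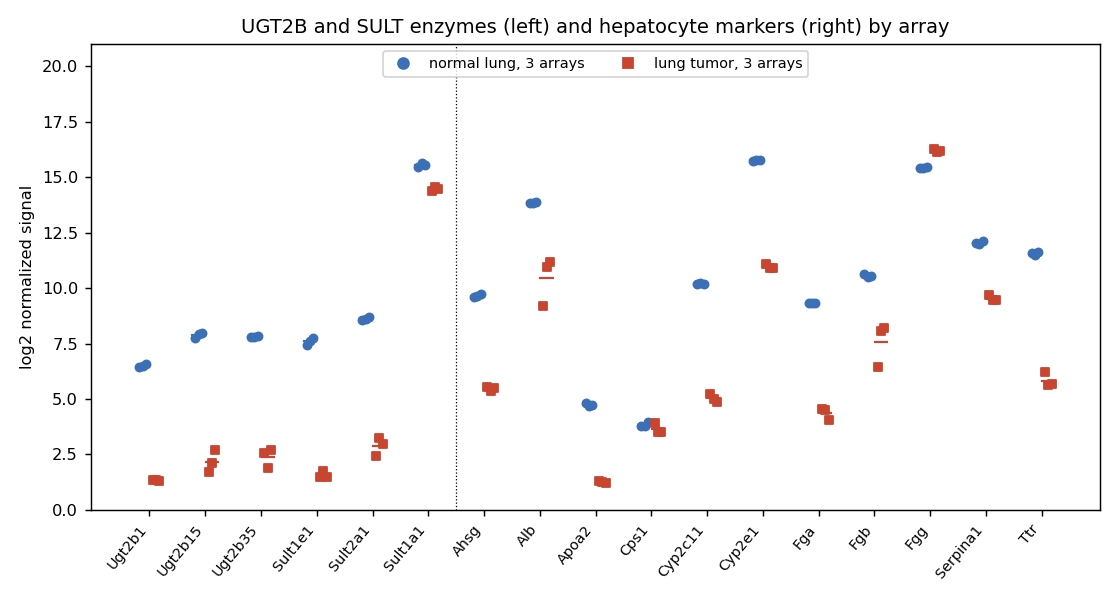
Log2 normalized signal on the 3 normal lung arrays (circles) and 3 lung tumor arrays (squares) for UGT2B and SULT enzymes, left of the dotted line, and for 11 hepatocyte markers that passed the filter, right of it, with short lines at the group means. Tumor squares of Ugt2b1, Ugt2b15, Ugt2b35 and Sult1e1 lie at 1.3 to 2.7, where no tumor array was well above background, most hepatocyte markers also stand lower in tumor, and Fgg stands higher.

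Of the 9 UGT1A probes, 1 was tested and it did not reach 2-fold. These genes make bilirubin and phenol glucuronides and share their last exons at 1 locus. Their probes, for 8 genes, read between 13.97 and 14.27 on the normal arrays and between 14.75 and 15.08 on the tumor arrays. Which of the transcripts each probe takes up was not tested. Only the probe Ugt1a6 NM_001039691 kept enough unmarked spots to be tested, and it was higher by 0.77 (SE 0.06, adjusted p = 0.000138), short of 2-fold. With marked spots kept the 9 differences ranged from 0.70 to 0.90, and every tumor value was above every normal value. Ugt1a9 (0.90) passed 2-fold under normexp (1.03), with quantile normalization over all 8 arrays (1.02) and in the authors' normalized values (1.02).

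Genes that supply these enzymes or handle their products, and other enzymes of the same kinds, were followed as 4 lists. Over all probes tested, 13.5% were higher and 15.5% lower. In glutathione supply and conjugate export, 4 of 15 tested probes were higher (26.7%) and 1 was lower (6.67%). The glutathione conjugate pump Abcc1 rose by 3.03 (SE 0.28, adjusted p = 0.000935), Abcc3 by 1.14 and the dipeptidase Dpep2, which acts on leukotriene D4, by 1.68. Glutathione reductase (Gsr) was well above background on all 3 tumor arrays and on no normal array, with values of 3.75, 2.77 and 3.13 against 5.47, 4.93 and 4.74. The plasma glutathione peroxidase Gpx3 fell by 1.96. In cofactor supply for glucuronidation and sulfation, none of 10 was higher and 2 were lower (20%). Papss2, which makes the sulfate donor PAPS, differed by -1.78 (SE 0.10, limma, adjusted p = 6.54e-05). Arsa, a sulfatase that makes no cofactor, differed by -1.06. Among other phase 2 enzymes 2 of 11 (18.2%) were lower, near the share over all probes. They were Ephx4 (-1.42) and Pon3 (-1.02). Among other carbonyl and alcohol oxidoreductases 1 of 11 (9.09%) was higher, Dhrs11 (1.62), and 2 (18.2%) were lower. The latter were Adh7 (-2.66), which oxidises retinol and ethanol, and Ptgr1 (-1.52), which reduces prostaglandins and enals.

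In blood the question was which of the enzymes differed between the control and the NNK clot, and with 1 array a group there was no test. Member probes well above background numbered 58 on each array and 55 on both. Of the 89 probes, 12 had such signal on all lung arrays and on neither blood array, among them Akr1c15, Akr1c12, Akr1c19, Aldh1a1 and Sult1a1, and 3 were so in blood and on no lung array. Of the 61 probes above background on at least 1 blood array, 15 were at least 2-fold higher in NNK blood, beside 23.1% of all 14452 probes compared, and 11 at least 2-fold lower, beside 19.1%. The 15 included all 9 UGT1A probes, which read alike on each array and may not be separate measurements. The count of lower probes depended on the scaling, and was 5 under normexp, 21 with quantile normalization over all 8 arrays and 22 in the authors' normalized values. The median log2 difference was -0.42 over the members and -0.11 over all probes compared. The 75th percentile of the signal was 95.4 on the control array and 205.8 on the NNK array before normalization.

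Among probes above background on both blood arrays, the highest in NNK blood relative to control was Akr1b1, at 7.67 in control and 10.14 in NNK blood, a difference of 2.48 on the log2 scale. The 9 UGT1A probes read 7.71 to 8.13 in control and 9.32 to 10.06 in NNK blood, higher by 1.30 to 2.06. Mgst1 was higher by 1.65, Gsta5 by 1.21 and Aldh16a1 by 1.14. Akr1b10, a retinal reductase, was well above background on the NNK array only, at least 1.43-fold higher, and so was Gstm6l, at least 1.08-fold.

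Among the same probes the lowest was Ephx1, at 11.13 in control and 8.54 in NNK blood on 1 probe and 11.10 and 8.49 on the other, differences of -2.60 and -2.61. Gsta1 differed by -2.06, Mgst2 by -1.65, Ugt2a1, a glucuronosyltransferase known from olfactory epithelium, by -1.51, Gstm5 by -1.45 and Akr1c1 by -1.36. The Gsta3 probe NM_001159739 was well above background on the control array only, at least 3.58-fold lower in NNK blood. The 2 MGST genes thus went opposite ways by the same size. On the same arrays 4 of 7 T cell marker probes (summed signal 18690 in control and 19076 in NNK blood) and 2 of 3 neutrophil marker probes (14741 and 70262) were at least 2-fold higher in NNK blood, and 3 of 5 platelet probes were lower (153728 and 88445). Their part in the enzyme differences was not tested, and with 1 array a group, NNK treatment and differences between the 2 blood samples cannot be told apart.

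**Figure D5:**
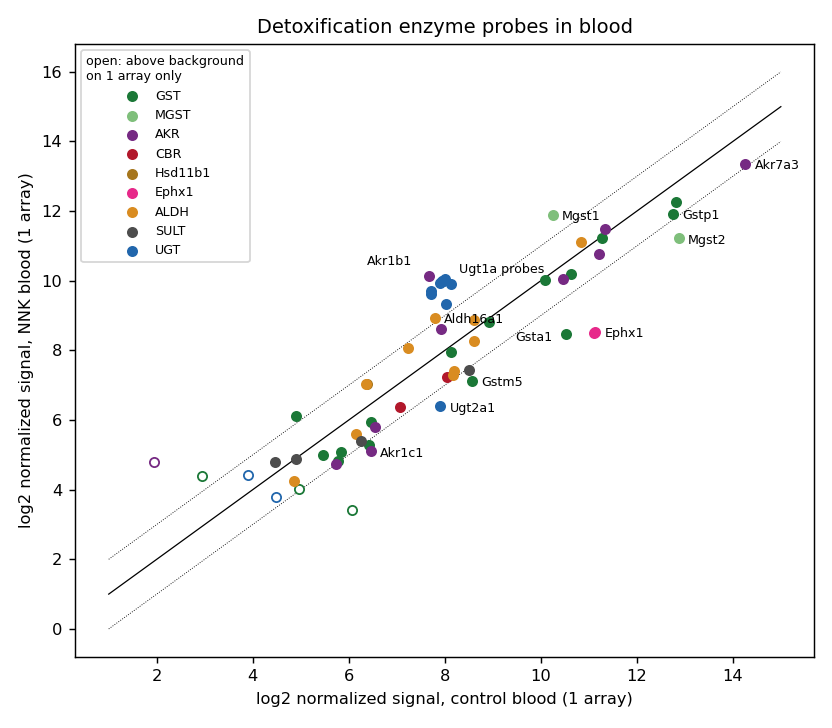
Log2 normalized signal of the 61 member probes above background in blood, with control blood on the horizontal and NNK blood on the vertical axis (1 array each), colored by family. The solid line marks equality and the dotted lines 2-fold, and the UGT1A probes, Akr1b1 and Mgst1 lie above the upper line while Ephx1, Gsta1 and Mgst2 lie below the lower one.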

How the data were processed

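The authors deposited, for each of the 8 arrays, the spot intensities of Agilent Feature Extraction 10.5.1.1, whose processed signal is background-subtracted and not normalized between arrays, and a table of log2 values that they quantile-normalized over all arrays, used here as an alternative. Log2 processed signals of the 42136 non-control spots were quantile-normalized within the 6 lung and within the 2 blood arrays with R 4.3.3 and limma 3.58.1. Outlier-marked spots were left out, each member probe had 1 spot, and no spot was saturated. Probes were named through RefSeq accessions (14266 of 15323 mRNA probes, 93.1%). Lung groups were compared with lmFit and eBayes, with group as the only term, over all lncRNA and mRNA probes that were well above background on at least 3 lung arrays and kept 2 values a group. A call needed a 2-fold change and a Benjamini-Hochberg adjusted p of 0.05. The fit was tested on simulated data.

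Members and gene lists were chosen with earlier results of these data known. Genes were named by a rule: the 12 largest rises and falls among called genes whose arrays did not overlap, a fixed list of enzymes for NNK and its metabolites, and in blood the 6 largest differences each way and those at least 4-fold apart above background on 1 array only. Akr7a2, Gstm7, Ugt8, Aldh9a1, Gstm5 and the further genes given by a single value were added after their values were seen. The values of 1 marker gene are not reported here. Scans were told from shared scan times. Alternatives changed the scaling, background correction, floor, filter, outlier marks, test, block and replicates.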

Additional observations from a re-analysis of the deposited data

How the results depend on the processing

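The number of member probes higher in tumor, 5, became 9 with the marked spots kept, 9 in the authors' normalized values, 9 with marked spots kept and scan as a block (an alternative chosen after seeing the data) and 3 when near-identical arrays were counted once. Under the other settings it was 4 to 6. The number lower, 15, was 12 to 17 under all settings. The shares over all probes moved with the setting too, so a changed count is not by itself particular to the members. In the main fit 13.5% of all probes were higher and 15.5% lower, and under normexp 7.76% and 10.1%. Both shares also fell when near-identical arrays were counted once. With the replicate number as a block, from labels that call the tumors matched, 5 were higher and 15 lower, the same 20 probes. Same-numbered deviations correlated at 0.14, -0.04 and 0.16, and different-numbered ones at -0.19 to 0.14. Because the normal lung arrays, and tumors 2 and 3, differed by less than the spot noise, these values cannot decide the pairing. Leaving out 1 array gave 4 to 5 higher and 13 to 16 lower. Aldh1a2 and Gsta5 were lost without tumor 1 or tumor 2 because the marked spot of tumor 3 then left too few values. In blood, 11 probes lower in NNK blood became 21 with quantile normalization over all 8 arrays, 22 in the authors' values and 5 under normexp, and the 15 higher ranged from 11 to 21. The sign turned for Akr1c1 without lung tumor replicate 1 (0.19, with a range from -0.50 to 0.19 over the arrays left out) and for Hsd11b1 under the 75th percentile shift (0.029). Of 999 values for 48 named probes in lung, 948 kept direction and call, 37 kept direction and lost the call, and 12 gained it. The cause of these changes was not tested. Signals near background limit what can be said of UGT2B and SULT levels in tumor.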
